A study of Petunia x hybrida with 22 samples.

Results

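Regions of the petunia genome that gained both H3K27ac and H3K9ac between morning and evening were examined in corolla tissue, the coloured part of the flower. A region was formed by merging the H3K27ac islands (intervals of enriched reads) listed as richer in the 7PM library than in its 7AM partner. It was kept when it held such islands of both H3K27ac replicates, overlapped an H3K9ac island higher at 7PM in replicate 1 or 2, and overlapped no H3K36me3 island lower at 7PM in replicate 1 or 3. The regions were therefore chosen by these acetylation values, and the acetylation gains below are given as a description, with no test. The rule left 225 regions on 177 scaffolds, out of 430 regions in which H3K27ac was higher in both replicates. For background, merging rising and falling islands together gave 4371 H3K27ac regions listed in both replicates, of which 425 (9.72%) were higher at 7PM in both. Of the 430, 145 had no listed H3K9ac rise and 60 had a rise of both acetylations over a falling H3K36me3 island.

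The samples were chromatin from corollas of Petunia x hybrida cultivar Mitchell at 7PM and at 7AM, from greenhouse plants given 14 h of light from 6AM to 8PM and 10 h of dark. Chromatin immunoprecipitation and sequencing (ChIP-seq) was done with antibodies to H3K27ac, H3K9ac, H3K4me3 and H3K36me3, with 2 biological replicates per mark and time. The 16 ChIP libraries were used, and the 6 input samples were not used here. Whole corollas hold several cell types, so a gain within each cell and a gain in the share of cells that carry a mark cannot be told apart. Reads per library numbered 14140437 and 7945368 at 7PM in replicates 1 and 2, against 11366924 and 6721831 at 7AM, for H3K27ac, 13031572 and 15757663 at 7PM, against 11507185 and 12998900 at 7AM, for H3K9ac, and 26643442 to 51116862 for the methylation marks. The authors' deposited lists hold changed islands alone, at 2.00-fold or more, so a region without a listed island of a mark has an unknown level of that mark and is not shown to be unchanged.

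Acetylation of histone H3 at lysines 27 and 9 is placed by acetyltransferases, loosens the contact of the histone tail with DNA and marks active promoters and enhancers, while deacetylases remove it. H3K4me3 marks the start of active genes and H3K36me3 is laid down over gene bodies as they are transcribed. In the petunia corolla the making of benzenoid scent follows a daily rhythm and emission peaks at night, under the control of clock proteins and of MYB factors such as ODORANT1. The scaffold names begin with Peaxi162, the genome build is not given in the sources used here, and no gene annotation was used, so no region below is tied to a gene.

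H3K27ac was denser in the evening at all 225 regions, as the rule asks. The median density of the islands was 3.11 and 3.69 CPM (reads per library, scaled to the library total) per kb at 7PM in replicates 1 and 2, against 1.01 and 0.992 CPM per kb at 7AM. In reads, a region held 13 to 1099 (median 70) at 7PM in replicate 1, against 1 to 404 (median 18) at 7AM. Replicate 2 had 10 to 585 reads (median 43) at 7PM, against 0 to 211 (median 10) at 7AM. The median log2 fold (evening over morning CPM, with a pseudocount of 1 read) was 1.60 over the means of the 2 replicate pairs, with quartiles at 1.35 and 1.98. The spread between the pairs of a region had a median of 0.29 (SD on the log2 scale, n = 2 pairs). Over all 4371 H3K27ac regions the median log2 fold was −1.39.

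H3K9ac was denser in the evening by a like amount. Its rising islands at these regions had a median density of 3.26 CPM per kb at 7PM and 0.941 at 7AM in replicate 1 (137 regions), and of 3.03 at 7PM and 0.846 at 7AM in replicate 2 (201 regions). The median log2 fold was 1.65, with quartiles at 1.37 and 2.03. H3K9ac rose in both replicates at 113 regions (50.2%), in replicate 2 alone at 88 and in replicate 1 alone at 24. Of all 4371 H3K27ac regions, 3.39% overlapped a rising H3K9ac island of both replicates and 8.1% a rising island of either. The rule fixed that gap in part, since it asked for a rise in either replicate.

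The 113 regions with an H3K9ac rise in both replicates had larger H3K27ac values than the others. Their median H3K27ac log2 fold was 1.79, against 1.43 at the 88 regions listed for H3K9ac in replicate 2 alone and 1.55 at the 24 listed in replicate 1 alone. They were also longer, with medians of 2400 bp, 2000 bp and 1600 bp in the same order, and held a median of 7.16, 4.65 and 2.73 CPM of H3K27ac at 7PM. No test of these differences was made, because a region with more reads is more easily listed in both replicates.

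Where both acetylations were listed in all pairs, their folds were alike in size. At the 113 regions the H3K27ac log2 fold minus the H3K9ac log2 fold had a median of 0.026 with quartiles at −0.27 and 0.26, and the H3K27ac fold was the larger at 59 of them. Across these regions the mean folds of the marks had a Pearson r of 0.56 and a Spearman rho of 0.46. The folds of the 2 replicates had an r of 0.50 and a rho of 0.36 for H3K27ac (225 regions) and 0.54 and 0.53 for H3K9ac (113 regions). These are correlations across regions of shared libraries, in a set from which folds under 2 were already removed.

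**Figure D1:**
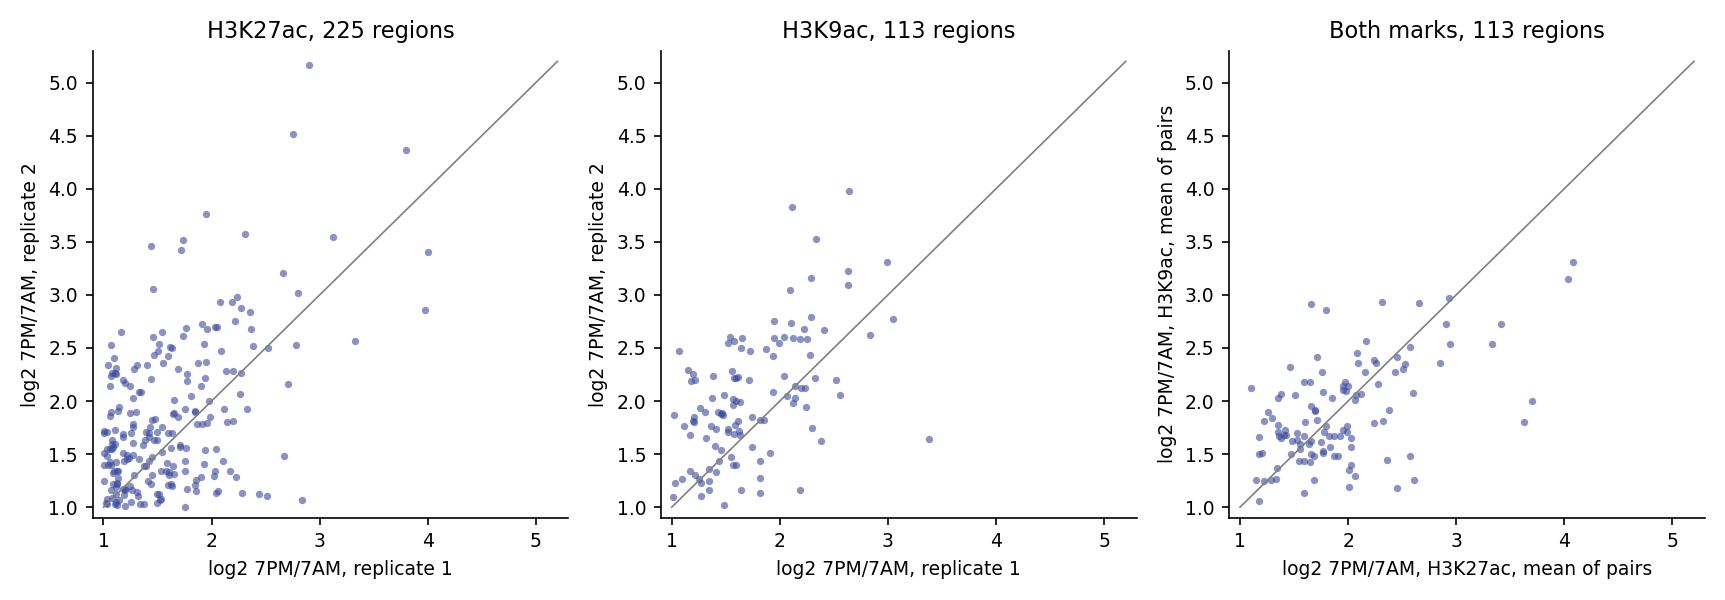
Log2 fold of 7PM over 7AM per region, with replicate 2 on the y axis against replicate 1 on the x axis for H3K27ac (left, 225 regions) and H3K9ac (middle, 113 regions), and mean H3K9ac against mean H3K27ac fold (right, 113 regions). Each point is a region and the grey line marks equal folds; most points lie between 1 and 3, and no point lies under 1, because the authors listed 2-fold changes alone.

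The strongest gains were taken as the regions whose weakest of the 4 acetylation pairs had the largest log2 fold. On Peaxi162Scf00655 at 132601 to 134000, a region of 1400 bp, H3K27ac had 129 and 84 reads at 7PM, against 13 and 1 at 7AM. Its ratio of CPM was 7.98 in replicate 1 (95% exact counting interval 4.50 to 15.4) and 71.1 in replicate 2 (12.4 to 2840), where the morning level rests on 1 read. The rising H3K9ac islands that overlapped this region, counted whole, had 89 and 155 reads at 7PM, against 9 and 12 at 7AM. Their mean log2 fold was 3.15 ± 0.22 (SD, n = 2 pairs). H3K9ac values at the regions below were counted in the same way and can reach past the borders given. The evening libraries of both marks stood far above the morning ones there.

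Peaxi162Scf00002 carried 2 of the 10 strongest regions, 24400 bp apart. At 345401 to 351400 H3K27ac had 42.8 and 61.2 CPM at 7PM, against 2.99 and 2.83 CPM at 7AM, and H3K9ac had 24.8 and 32.7 CPM at 7PM, against 3.91 and 2.00 CPM at 7AM. The mean log2 fold was 4.08 ± 0.40 for H3K27ac and 3.31 ± 0.95 for H3K9ac (SD, n = 2 pairs each). At 316201 to 321000 the same marks had 20.6 and 19.3 CPM of H3K27ac and 18.5 and 19.4 CPM of H3K9ac at 7PM, against 1.23 and 2.53 CPM and 2.52 and 3.08 CPM at 7AM. Evening levels of the 2 marks were close to each other in all 4 libraries at this second place, and the islands of both marks covered the same 4800 bp. This scaffold held 5 of the 225 regions, the other 3 lying at 33201 to 34000, 934801 to 937600 and 5022601 to 5026400 with mean H3K27ac log2 folds of 1.95 ± 1.3, 1.45 ± 0.21 and 1.41 ± 0.28.

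The other strong gains had the same form at lower levels. On Peaxi162Scf00128 at 1781601 to 1783800 H3K27ac had 76 and 40 reads at 7PM, against 8 and 5 at 7AM, and H3K9ac had 132 and 124 reads at 7PM, against 18 and 10 at 7AM. On Peaxi162Scf00740 at 114201 to 116400 H3K27ac had 118 and 82 reads at 7PM, against 10 and 5 at 7AM, and H3K9ac had 65 and 99 reads at 7PM, against 10 and 12 at 7AM. On Peaxi162Scf00016 at 2051201 to 2055400 H3K27ac had 252 and 154 reads at 7PM, against 40 and 10 at 7AM, and H3K9ac had 171 and 284 at 7PM, against 30 and 33 at 7AM. In each of these 3 regions every evening library lay above every morning library of its mark. The shortest of the 10 was an 800 bp region on Peaxi162Scf00912 at 32601 to 33400, where H3K27ac had 7.71 and 7.55 CPM at 7PM, against 1.41 and 1.19 CPM at 7AM, with a mean log2 fold of 2.45 ± 0.099. The last 3 were on Peaxi162Scf00450 at 11801 to 18000, Peaxi162Scf00207 at 295001 to 299400 and Peaxi162Scf00081 at 573801 to 575400, with mean H3K27ac log2 folds of 2.91 ± 0.16, 2.24 ± 0.056 and 2.43 ± 0.38 and mean H3K9ac log2 folds of 2.72 ± 0.62, 2.39 ± 0.28 and 2.27 ± 0.075.

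**Figure D2:**
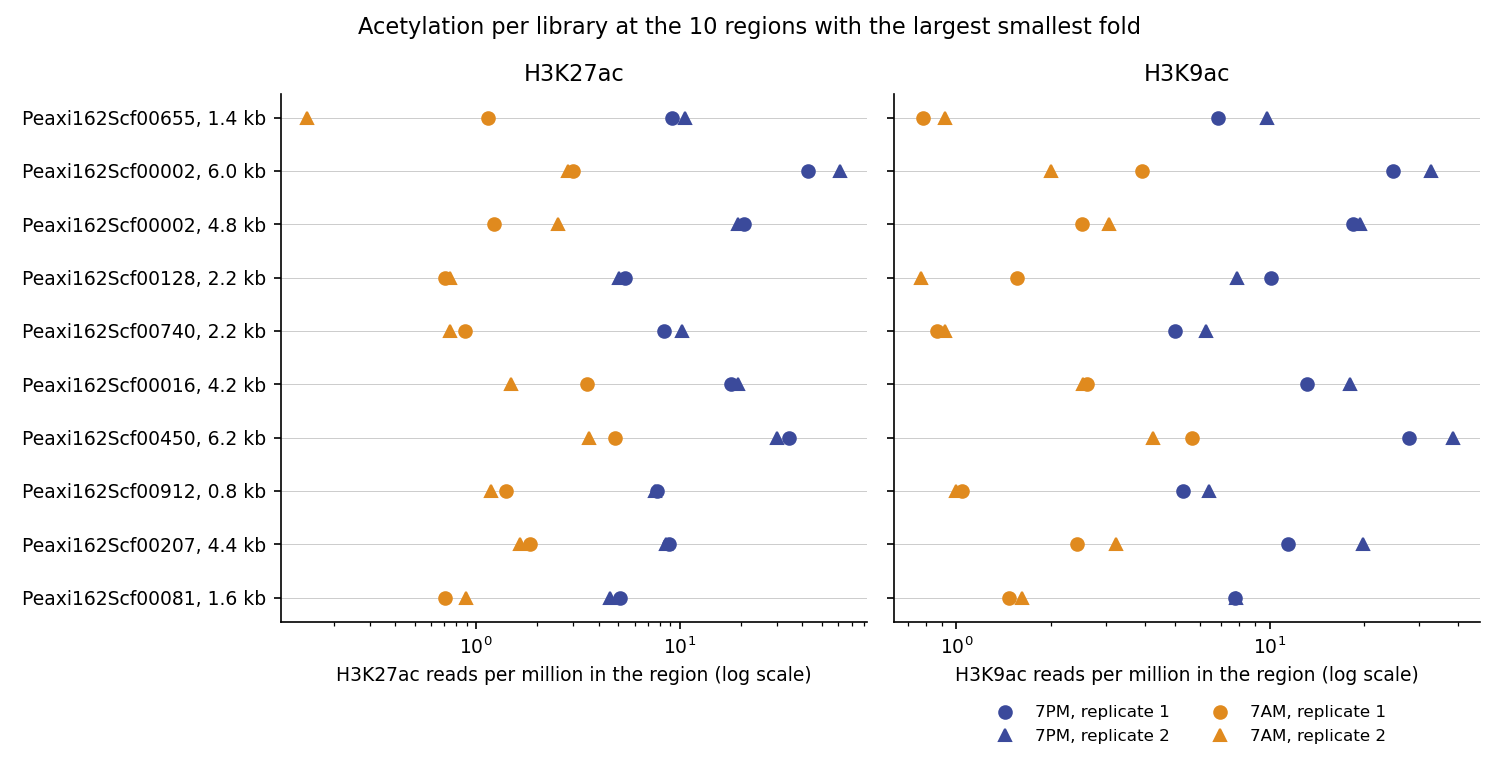
CPM per library on a log axis at the 10 regions ranked by the fold of their weakest pair, with H3K27ac on the left and H3K9ac on the right; blue is 7PM and orange is 7AM, circles are replicate 1 and triangles replicate 2. All 7PM points lie to the right of the 7AM points of their region, and the top row has a 7AM H3K27ac point that rests on 1 read.

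Few regions changed so much. At 28 of the 225 (12.4%) H3K27ac was higher by a log2 fold of 2 or more in both replicates, against 0.938% of all 4371 H3K27ac regions, a share that the rule sets in part by asking for a rise. At 14 of the 113 regions all 4 acetylation pairs reached a log2 fold of 2. The weakest listed values lay at the authors' limit: the smallest log2 fold was 1.001 on Peaxi162Scf00004 at 4028001 to 4029600 and on Peaxi162Scf00016 at 1970601 to 1971600, and 1.002 on Peaxi162Scf00087 at 90001 to 92000. At low counts the morning level was often a handful of reads, with 3 or fewer H3K27ac reads at 7AM in 7 regions of replicate 1 and in 29 of replicate 2.

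The regions were mostly short. Their length ran from 200 to 14200 bp with a median of 2000 bp, which is also the median of all 4371 H3K27ac regions, and 23 (10.2%) were 5 kb or longer, against 8.69% of all. The longest was on Peaxi162Scf00493 at 74601 to 88800, with 38.0 and 73.6 CPM of H3K27ac at 7PM, against 17.4 and 31.4 CPM at 7AM. H3K9ac was listed there in replicate 2 alone, with 846 reads at 7PM and 258 at 7AM. The next was 12800 bp on Peaxi162Scf00445 at 875801 to 888600, where H3K27ac had 1099 and 544 reads at 7PM, against 404 and 197 at 7AM, which are 77.7 and 68.5 CPM at 7PM, the highest mean evening level of the 225. These longest regions had H3K27ac in the morning too, and their mean log2 folds of 1.17 ± 0.073 and 1.17 ± 0.066 were near the lower limit of the lists.

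Larger folds were also found among the long regions, though on Peaxi162Scf00163 replicate 1 stayed near the lower limit of the lists. On Peaxi162Scf00959 at 199401 to 209800 H3K27ac had 63.1 and 55.6 CPM at 7PM, against 19.4 and 11.2 CPM at 7AM, and H3K9ac had 43.4 and 87.8 CPM at 7PM, against 10.5 and 18.5 CPM at 7AM. On Peaxi162Scf00581 at 293201 to 302600 H3K27ac had 36.5 and 40.7 CPM at 7PM, against 9.41 and 7.74 CPM at 7AM. Peaxi162Scf00163 at 1046001 to 1055200 had 32.6 and 31.5 CPM at 7PM, against 15.8 and 11.2 CPM at 7AM, and Peaxi162Scf00008 at 3517801 to 3526200 had 48.0 and 47.2 CPM at 7PM, against 17.6 and 10.1 CPM at 7AM. Length and fold showed little relation across the 225 regions (Pearson r 0.0053, Spearman rho −0.016, a description over regions of shared libraries).

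The 2 acetylations covered nearly the same ground, which the rule sets in part by asking for an overlap. The span of the rising H3K9ac islands ran from the first border to the last over both replicates, gaps counted in, and had a median of 2200 bp. Its centre lay a median of 200 bp from the centre of the H3K27ac region and within 500 bp at 169 regions. The span covered a median of 98.4% of the H3K27ac region. At 112 regions the H3K27ac region lay wholly inside the H3K9ac span. H3K9ac reached over a longer stretch at 109 regions and a shorter one at 78. At the 60 regions with both gains over a falling H3K36me3 island the median cover was 100% and the median offset of the centres 300 bp. Borders move in steps of 200 bp in the deposited lists, so offsets of 200 bp are at the limit of resolution.

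**Figure D3:**
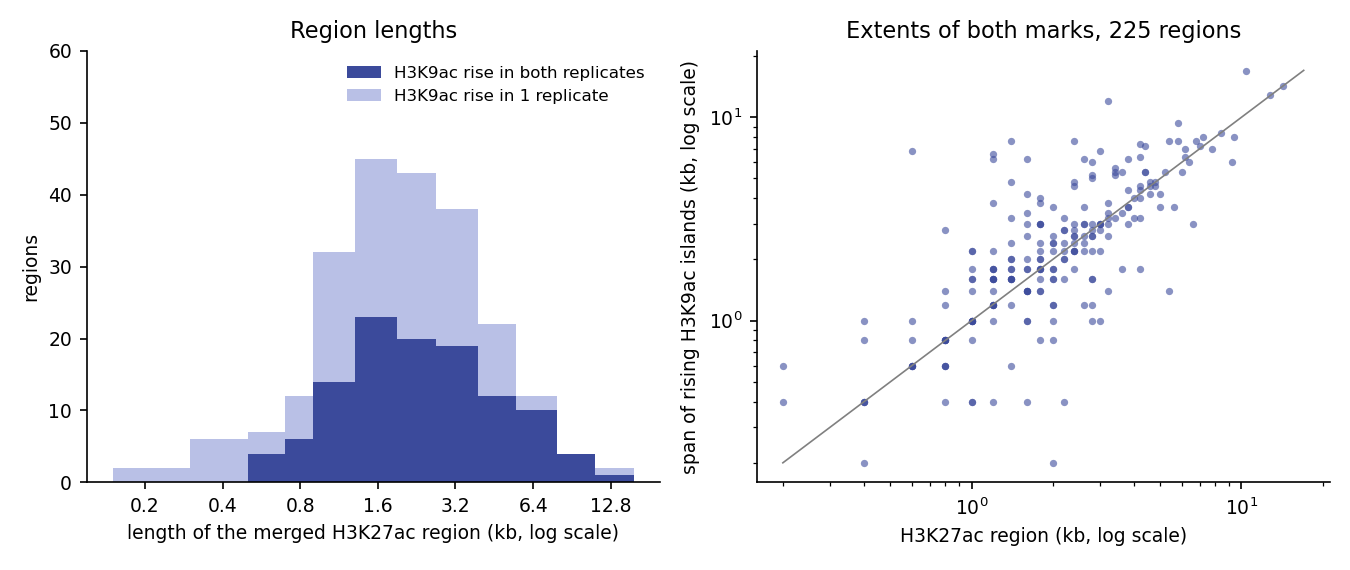
Left, number of regions by length of the merged H3K27ac region in kb on a log axis, with dark bars for regions with an H3K9ac rise in both replicates and light bars stacked on them for a rise in a single replicate. Right, span of the rising H3K9ac islands against the length of the H3K27ac region, both in kb on log axes, where most of the 225 points lie along the grey line of equal extent.

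At the limit of overlap, 5 regions shared 200 bp with their best H3K9ac island, among them Peaxi162Scf00003 at 2841201 to 2841600, Peaxi162Scf00087 at 90001 to 92000 and Peaxi162Scf00129 at 1210201 to 1210400. Just outside the rule, 4 of the 145 regions without a listed H3K9ac rise lay 400 bp from a rising H3K9ac island, which was the shortest gap, and 49 lay within 10 kb of one. The gap of 400 bp was found on Peaxi162Scf00011 at 895801 to 897200, Peaxi162Scf00059 at 1253801 to 1254200 and Peaxi162Scf00067 at 2345801 to 2347000, the first 3 by scaffold. Their mean H3K27ac log2 folds were 1.57, 1.50 and 1.43, inside the range of the 225 regions. Falling H3K9ac islands lay over 2 of the 225 regions (0.889%), in replicate 1, against 64.7% of all H3K27ac regions in either replicate and 14.7% in both, a gap that the rule sets in large part. They were on Peaxi162Scf00166 at 943601 to 946400 (5 reads at 7PM and 12 at 7AM in a 400 bp island) and on Peaxi162Scf00765, while a falling H3K27ac island of replicate 1 touched a region on Peaxi162Scf00045. On Peaxi162Scf00166 the same region had 40 reads of H3K9ac at 7PM and 5 at 7AM in replicate 2, in a different island.

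Methylation was the readout that the rule did not use, apart from barring H3K36me3 losses. At 179 of the 225 regions (79.6%) no change of H3K4me3 or H3K36me3 was listed, in part because the rule barred falling H3K36me3 islands. The matching share of all H3K27ac regions was not counted, so the 79.6% is no result about the 225. H3K4me3 was listed as lower at 7PM in either replicate at 33 regions (14.7%), against 12.7% of the 3754 H3K27ac regions that, like these, overlap no falling H3K36me3 island. The share is near that background and close to the 13% among H3K27ac regions that fell, so it is no result about regions that gained acetylation. A loss listed in both replicates was found at 6 regions (2.67%), against 2.24% of the 3754 and 5.06% of all 4371. H3K4me3 was listed as higher at 10 regions (4.44%), against 0.879% of the same 3754 and 0.316% of the 3165 that fell. Of the 145 regions with no listed H3K9ac rise, 7 (4.83%) overlapped a rising H3K4me3 island. The 10 rises among the 225 regions were all listed in H3K4me3 replicate 2, whose list has 9669 rising islands, and 1 of them also in replicate 1, whose list has 3277; of the 3754 regions 0.0266% rose in both. Whether the length of that list plays a part was not tested.

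Around the region centres, the share of the 225 regions under a falling H3K4me3 island reached 9.33% within 1 kb and averaged 2.16% at 10 to 20 kb. Among the 3754 H3K27ac regions it reached 6.77% and averaged 3.08%, so that a peak at the centre is not particular to the regions with acetylation gains. Rising H3K4me3 islands reached 3.56% and averaged 0.969% at the 225 regions, against 0.533% and 0.972% among the 3754. These shares were not tested. The 33 regions with a loss had a median length of 2600 bp, the 10 with a gain 1300 bp and the 182 with neither 2000 bp. Their median H3K27ac log2 folds were 1.63, 1.66 and 1.60 in the same order, which are close to each other. The largest H3K4me3 loss of a single replicate was on Peaxi162Scf00252 between 430001 and 431600, with 4 reads at 7PM and 51 at 7AM in replicate 2, inside a region that had 359 and 213 reads of H3K27ac at 7PM, against 94 and 71 at 7AM. It was chosen after its values were seen.

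All 1866 H3K4me3 regions that both replicates listed entered a blocked fit by replicate number in edgeR (quasi-likelihood test, Benjamini-Hochberg adjustment over the whole table), and 6 lay at the acetylation regions. Of these, 5 were lower at 7PM and 1 was higher at an adjusted p under 0.05, against 88.7% lower and 9.97% higher among all tested, which is near the background. Because the authors had already selected changed islands, the test says how the pairs compare within that selected set. Without the block no H3K4me3 region at these places passed (edgeR adjusted p 0.168 to 0.193). At an unadjusted p under 0.05, 1 was lower and 0 higher. Each replicate was counted over its own islands, so the unblocked fit compares counts from unlike lengths. The effect of this was not tested. The falls are relative to the library total, and with TMM scaling, which called 186 of the 1866 higher and 18 lower, the 5 edgeR log2 folds were −0.10 to 0.065 and none passed. TMM was computed from these listed regions alone, of which 88.7% were lower, and it moves the typical listed region towards no change. It therefore cannot tell whether the falls depend on the library total.

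The H3K4me3 rise was on Peaxi162Scf01060 at 128001 to 131200, with 735 and 195 reads at 7PM, against 237 and 99 at 7AM, a mean log2 fold of 1.07 ± 0.029 (SD, n = 2 pairs; edgeR adjusted p = 0.0026). The H3K4me3 island of replicate 2 began at 128801 and covered 2400 bp, against 3200 bp in replicate 1. The acetylation region there, at 129001 to 130800, had 102 and 38 reads of H3K27ac at 7PM, against 16 and 14 at 7AM. H3K9ac had 135 and 193 reads at 7PM, against 27 and 23 at 7AM. All 6 evening libraries of the 3 marks were above their morning partners, and this was the single H3K27ac region of 4371 with a rising H3K4me3 island in both replicates (0.0229%).

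The H3K4me3 falls rested on fewer reads. Reads of a replicate were those of its own island, which could be shorter than the region given. In replicate 1 the islands on Peaxi162Scf01141, Peaxi162Scf00008 and Peaxi162Scf00138 covered 1800, 1800 and 2400 bp. In replicate 2 they covered 1000, 400 and 1200 bp. On Peaxi162Scf00449 and Peaxi162Scf00493 the replicate 2 island was the longer. On Peaxi162Scf01141 at 112801 to 114600 H3K4me3 had 109 and 15 reads at 7PM, against 160 and 63 at 7AM, a mean log2 fold of −1.50 ± 0.53 (SD, n = 2 pairs; edgeR adjusted p = 0.0062). H3K27ac over that place, at 112601 to 116000, had 161 and 83 reads at 7PM, against 41 and 30 at 7AM, and H3K9ac had 108 and 230 at 7PM, against 41 and 39 at 7AM. Relative to library totals, H3K4me3 was lower and both acetylations were higher there in both replicates. On Peaxi162Scf00008 at 3518401 to 3520200 H3K4me3 had 75 and 12 reads at 7PM, against 111 and 28 at 7AM (−1.08 ± 0.072, edgeR adjusted p = 0.0033), inside a region of 8400 bp in which H3K27ac had 679 and 375 reads at 7PM, against 200 and 68 at 7AM. The other 3 falls were on Peaxi162Scf00138 at 185201 to 187600 (−1.25 ± 0.33), Peaxi162Scf00449 at 644001 to 644800 (−1.29 ± 0.10) and Peaxi162Scf00493 at 79401 to 80000 (−1.29 ± 0.24), with edgeR adjusted p of 0.0050, 0.0032 and 0.0083.

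**Figure D4:**
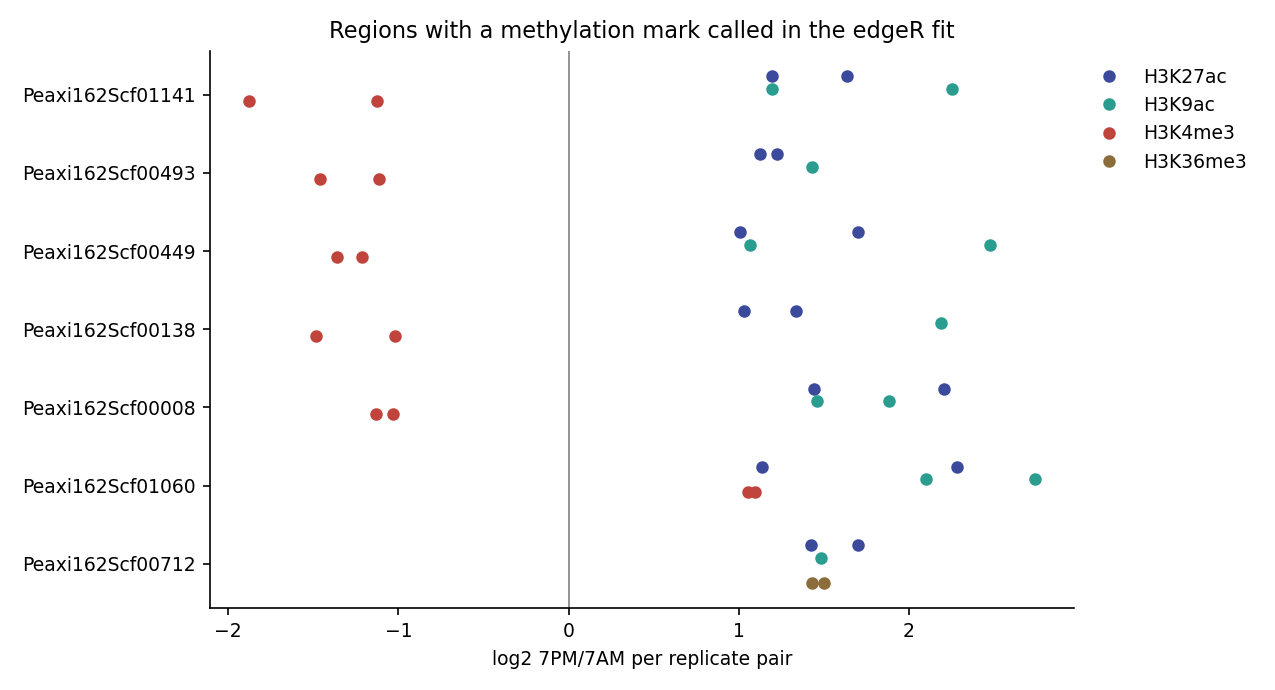
Log2 fold of 7PM over 7AM on the x axis, a point per replicate pair, at the 7 acetylation regions that hold an H3K4me3 or H3K36me3 region called in the edgeR fits, with a row per scaffold and a colour per mark. H3K4me3 points lie left of 0 in the top 5 rows and right of 0 on Peaxi162Scf01060, while all acetylation points lie at or right of 1; H3K9ac has a single point where it was listed in 1 replicate. With TMM scaling the 5 H3K4me3 falls were −0.10 to 0.065 in the edgeR fit, but TMM was computed from listed regions alone, most of which fell.

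H3K36me3 gains were rare. A rising H3K36me3 island overlapped 4 regions (1.78%), against 0.533% of the 3754 H3K27ac regions without a falling H3K36me3 island and 0.458% of all 4371. The share was 4.14% (6 regions) among the 145 with no listed H3K9ac rise. Among the 430 regions in which H3K27ac rose in both replicates it was 2.33%. A rise of H3K36me3 is therefore not particular to regions that gained both acetylations. Falling H3K36me3 islands, at 14.1% of the 4371 in either replicate and 3.43% in both, were barred by the rule. The single rise listed in both replicates was on Peaxi162Scf00712 at 741201 to 741600. It had 60 and 41 reads at 7PM, against 23 and 18 at 7AM. Its mean log2 fold was 1.46 ± 0.050 (SD, n = 2 pairs). The edgeR adjusted p was 3.4e-09 over 2567 regions, of which 5.69% were called higher and 94.2% lower. The authors had already selected changed islands, so nearly every region passed and the call adds little to the listing itself. The acetylation region there, at 740601 to 741600, had 29 and 22 reads of H3K27ac at 7PM, against 8 and 5 at 7AM. On Peaxi162Scf00093 at 56601 to 57000 islands of all 4 marks were higher at 7PM, with H3K4me3 at 121 and 60 reads and H3K36me3 at 74 and 42 reads at 7PM and 7AM, each in a single replicate and with the same borders. It was chosen after its values were seen.

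Further acetylation gains were listed near many of the regions. Within 10 kb outside the region, 89 of the 225 (39.6%) had another rising H3K27ac island of either replicate, against 14.4% of all H3K27ac regions, and 104 (46.2%) had a further rising H3K9ac island, against 18.7%. Among the 60 regions with both gains over a falling H3K36me3 island these shares were 36.7% and 51.7%, and among the 145 with no listed H3K9ac rise 24.1% and 32.4%, so further gains nearby are not particular to the 225. Falling acetylation islands lay near a smaller share, with 76 regions (33.8%) near a falling H3K27ac island, against 55% of all, and 70 (31.1%) near a falling H3K9ac island, against 57.9%. These shares were 31.7% and 35% among the 60, and 35.9% and 40% among the 145, so fewer losses nearby are not particular to the 225. For methylation the shares were close to those of all regions: 28.4% against 32.8% for falling H3K4me3, 15.6% against 14.7% for rising H3K4me3, 32.4% against 31.7% for falling H3K36me3 and 11.1% against 10.3% for rising H3K36me3. No test of these shares was made, since regions on a scaffold are not independent.

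**Figure D5:**
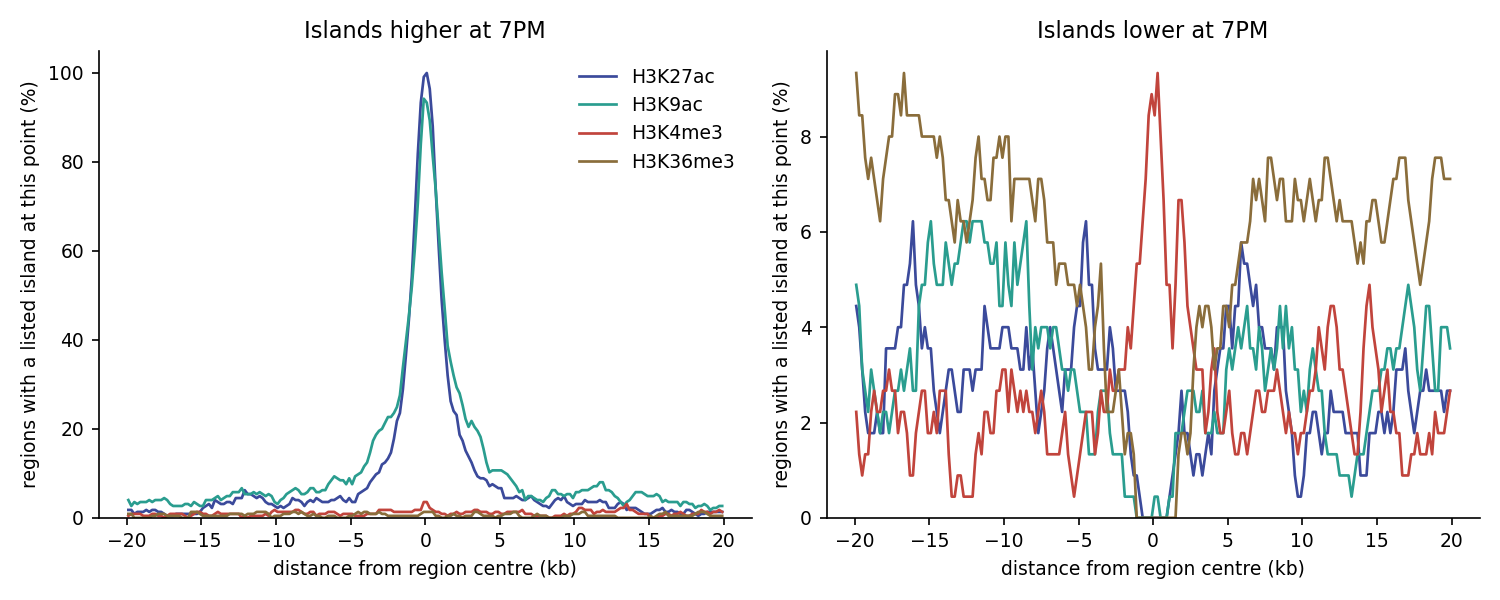
Share of the 225 regions with a listed island of each mark, in percent, by distance from the region centre in kb, for islands higher at 7PM (left) and lower at 7PM (right, with its own scale). Rising H3K27ac and H3K9ac islands cover 100% and 93.3% of the centres and averaged 2.25% and 4.31% at 10 to 20 kb; on the right the falling H3K4me3 line peaks at 9.33% near the centre, and the falling H3K36me3 line is at 0 there because the rule barred such islands.

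Some regions lay close together. Of 48 pairs of neighbouring regions on a scaffold, 8 were at most 10 kb apart. The closest pairs were 400 bp apart: on Peaxi162Scf00450 a region at 18401 to 22600, with 122 and 80 reads of H3K27ac at 7PM, against 24 and 18 at 7AM, followed the strong region that ends at 18000, and on Peaxi162Scf00959 a region at 191801 to 199000 preceded the long region that starts at 199401. Peaxi162Scf00207 also held 5 regions, 3 of them within 16400 bp at 1318201 to 1319200, 1329201 to 1331000 and 1331601 to 1334600. Their mean H3K27ac log2 folds were 1.53 ± 0.011, 2.32 ± 0.58 and 1.93 ± 0.17, and their mean H3K9ac log2 folds 1.70 ± 0.46, 1.81 ± 0.60 and 1.67 ± 0.72. The fifth, at 744401 to 745600, had 35 and 25 reads of H3K27ac at 7PM, against 5 and 2 at 7AM. Single regions were the rule, on 145 of the 177 scaffolds.

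Set beside the regions that gained H3K27ac without a listed H3K9ac rise, the 225 regions were longer (median 2000 bp against 1400 bp), had more reads (70 and 43 at 7PM in replicates 1 and 2, against 29 and 21) and larger folds (median log2 1.60 against 1.40). The 60 regions with both gains over a falling H3K36me3 island had a median length of 2800 bp, a median H3K27ac log2 fold of 1.55 and a falling H3K4me3 island at 20 of them (33.3%), against 51.7% of the 617 H3K27ac regions over a falling H3K36me3 island. A rising H3K4me3 island overlapped 1 of the 60 (1.67%), against 0.648% of the 617. The contrasts were not tested, nor was whether they depend on how many reads an island needs to be listed.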

How the data were processed

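The submitters' processing notes name SICER 1.1, Bowtie2 and cutadapt, without their settings. The 16 deposited lists, 1 for each mark, replicate and direction, give per island the authors' read counts of a 7PM and a 7AM library, the same as CPM, the authors' fold (a ratio) and the authors' p-values with FDR. The deposited fold was recomputed from the counts with 1 read added and library totals for all 125384 islands (largest relative difference 4.5e-12). Coordinates are 1-based. Columns have no names: columns 5 and 7 were read as 7PM and 7AM, which fits the label of every list.

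Islands sharing 1 bp were merged and their counts summed per library. Each replicate was counted over its own islands, so the replicates of a region can cover stretches of unlike length. H3K9ac reads at a region are those of every rising H3K9ac island that overlaps it, counted over the whole island. Ratio intervals are exact conditional binomial (95%), and cover counting error only, since reads carry no molecular identifiers. The shallowest library puts 3 reads at 0.446 CPM. H3K4me3 and H3K36me3 regions listed in both replicates, with no mixed direction, were fitted with edgeR 4.0.16 (R 4.3.3), with library totals as library sizes and the replicate as a block, because the authors called each list within a replicate number; the scripts were tested on simulated data. Same-numbered libraries deviated together (r = 0.80 and 0.85 across H3K4me3 and H3K36me3 regions). Both libraries of a number were counted over the same islands, so unlike island lengths feed into this r. It is therefore no support for the block. DESeq2 1.42.0 was an alternative.

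Members and lists were chosen with earlier results of these data known. Regions are named by these rules: the 10 with the largest fold in the weakest of 4 pairs, the 5 longest, the 5 with most evening H3K27ac, those with a methylation mark rising in both replicates or called by edgeR, those with an opposite H3K9ac island, the 3 nearest to the overlap limit on each side, and the closest pair and the fullest scaffolds.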

Additional observations from a re-analysis of the deposited data

Results flagged for a closer look

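At 5 regions H3K27ac and H3K9ac were higher at 7PM in every listed replicate pair while the H3K4me3 region inside was lower in both pairs, relative to library totals. What flagged them is that every acetylation pair lay above 0 and every H3K4me3 pair below 0, and the difference between the marks was not tested. The rule fixed the acetylation signs in advance, so only the H3K4me3 signs were free to vary. The mean H3K4me3 log2 fold was −1.08 on Peaxi162Scf00008, −1.25 on Peaxi162Scf00138, −1.29 on Peaxi162Scf00449, −1.29 on Peaxi162Scf00493 and −1.50 on Peaxi162Scf01141. With 5 of 6 tested H3K4me3 regions lower, against 88.7% of all tested, the count is near the background. With TMM scaling the edgeR log2 folds of the 5 lay between −0.10 and 0.065. Since TMM was computed from listed regions alone, most of which fell, it cannot tell whether these falls depend on the library total.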

How the results depend on the processing

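The rule is sensitive to how many reads an island needs. In place of 225 regions it gave 96 with at least 50 reads at 7PM, 24 with a deposited fold of at least 4, 113 with an H3K9ac rise required in both replicates, and 408 to 781 with a single replicate of each acetylation mark. The median H3K27ac and H3K9ac log2 folds were 1.32 and 1.45 with 5 reads added, 3.02 and 2.50 with TMM and 3.02 and 2.66 with median-of-ratios scaling. TMM raised the folds of the marks by a mean of 1.42 and 0.94. For every mark both scalings were computed from the listed regions alone, and they move the typical listed region towards no change. They therefore cannot tell whether a fold depends on the library total. With a single replicate the median H3K27ac and H3K9ac log2 folds were 1.49 to 1.70 and 1.58 to 1.77. Without the replicate block the H3K36me3 call held. That edgeR fit called 0 H3K4me3 regions higher and 0 lower at these places, in place of 1 and 5. It compares replicates whose counts can come from islands of unlike length, and the effect of this was not tested. Under TMM and under median-of-ratios scaling 0 were lower, and the log2 fold turned to 0.065 and 0.077 on Peaxi162Scf00008 and to 0.061 and 0.073 on Peaxi162Scf00138. DESeq2 called 4 lower, and a minimum of 50 reads left 2 H3K4me3 regions lower and 0 H3K36me3 regions higher, since fewer were tested. With a single replicate no test could be made, and listed islands at these places numbered 1 to 10 for rising and 13 to 26 for falling H3K4me3 and 3 for rising H3K36me3 in either replicate. Regions with a rising H3K4me3 island were 1 to 10, with a falling one 13 to 26 (53 when regions over falling H3K36me3 were kept) and with a rising H3K36me3 island 2 to 3. Apart from the smaller number of regions tested at a minimum of 50 reads, the causes of these changes were not tested. The alternatives for falling H3K4me3 and for H3K9ac in both replicates were chosen after seeing the data.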
